A study of Mesocricetus auratus with 24 samples.

Results

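The inferior colliculus (IC) of GASH/Sal hamsters that had not heard the seizure-evoking sound was compared with the IC of naïve control Syrian hamsters. The comparison rested on 12 of the 24 arrays of the series, 6 of each strain, chosen as the arrays whose titles name a strain and no stimulation. The labels give all animals an age of 16 weeks and mark these 12 as exposed to nothing. The other 12 arrays, 6 of each strain after auditory stimulation, entered the same statistical fit and served as a separate set of animals of both strains. The hamsters of one group carry the genetic audiogenic seizure background (GASH:Sal, University of Salamanca), and the labels give no causal gene or allele for it. The question was which transcripts of the IC already differ between the strains before any seizure.

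The IC is the midbrain hub in which ascending auditory pathways converge, and its neurons use glutamate, GABA and glycine. It is the site where sound-evoked seizures start in several rodent strains. GASH/Sal hamsters come from selective breeding, so that any difference from control Syrian hamsters can stem from many loci besides those behind the seizures. Hamster RNA was read here by mouse probes, and the deposited values are log2 signals of probe sets. A strain difference in the sequence under a probe and a difference in RNA amount cannot be told apart with these arrays. The IC was taken as bulk tissue, so fewer cells of a type and less RNA per cell cannot be told apart either.

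The naïve GASH/Sal array 6 stood apart from the rest of its group. Its mean correlation over genes with the other GASH/Sal arrays was 0.969, against 0.983 to 0.986 for the other 5. In it 235 genes lay at least 1 log2 unit below the mean of the other GASH/Sal arrays and 34 lay as far above, while the other 5 arrays had 0 to 8 such genes below. Among naïve Syrian arrays, array 2 had the most, with 38 below and 14 above. The counts of genes are therefore given with and without GASH/Sal 6, and so are the named differences it moved by over 1.5 times where the gene had an unadjusted p under 0.05 either way. Of the 12 stimulated arrays, Syrian 4 stood apart in the same way, with a mean correlation of 0.969, 71 genes below and 68 above. The stimulated counts of genes and the stimulated differences of several lowest-p genes are therefore given without it too. Stimulated values of gene lists, of their other members and of length bins include it. The array medians averaged 4.54 ± 0.0271 (SD, n = 6) in GASH/Sal and 4.57 ± 0.0159 (SD, n = 6) in Syrian hamsters, a difference of -0.0316 (exact permutation test over all splits of the 12 arrays, two-sided, p = 0.0325). This offset moves the balance of higher and lower genes given below. The labels name replicates 1 to 3 and 4 to 6 of every group in 2 styles, called label series A and B here. The sources at hand do not say what the styles mean. The sample descriptions of naïve GASH/Sal 5 and 6 also carry the codes found on stimulated Syrian 5 and 6, and the sources at hand do not settle why.

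**Figure D1:**
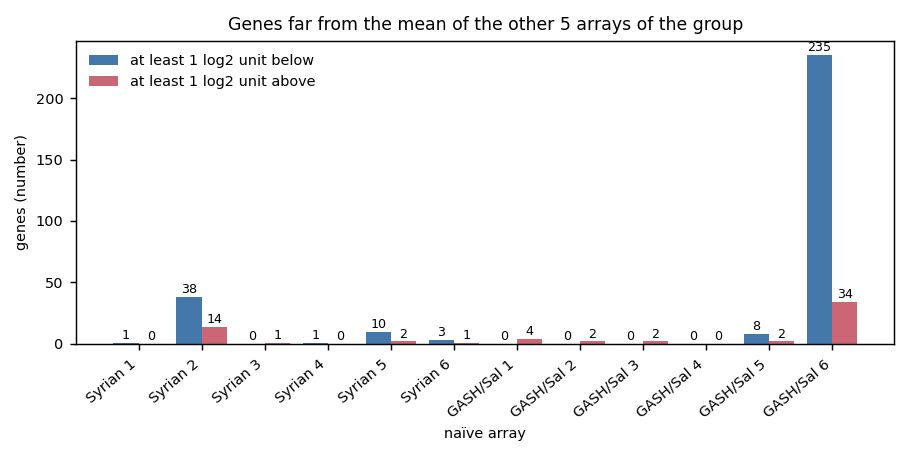
Number of genes (vertical axis) that lay at least 1 log2 unit below (blue) or above (red) the mean of the other 5 arrays of the same group, for each of the 12 naïve arrays (horizontal axis). GASH/Sal 6 had 235 genes below and 34 above, more than any other naïve array.

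Neuronal and transmitter genes were bright on these arrays, and markers of the midbrain and of neighbouring regions were mixed. Snap25, a presynaptic protein of all neurons, had a mean signal at percentile 99.7 of the 19938 genes tested, Slc17a6, the vesicular glutamate transporter of the midbrain, at 97.7, and Gad1, which makes GABA, at 98.7. A percentile places a probe set's signal among all genes and does not measure expression across probe sets. The median percentile was 72.1 over the 21 genes of the inferior colliculus and dorsal midbrain, 67.0 over 17 telencephalic genes and 56.1 over 17 cerebellar genes. Of the midbrain factors, En2 lay at percentile 53.4, Tfap2b at 62.7, Gata3 at 67.2, Pax7 at 72.1 and En1 at 76.9. Of the telencephalic genes, Neurod6 and Tbr1, transcription factors of cortical neurons, lay at percentiles 1.81 and 23.1, but Emx1, another cortical factor, at 82.4 and Camk2a, a kinase of forebrain synapses, at 97.7. Gabra6 of cerebellar granule cells lay at 20.3 and Ttr of the choroid plexus at 19.3. The part of neighbouring tissue in the dissections was not tested.

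No gene passed the threshold between the naïve strains. With limma, 0 of 19938 genes (0%) had an adjusted p under 0.05, and the lowest adjusted p was 0.0760. An unadjusted p under 0.05 was reached by 1201 genes (6.02%), of which 456 were higher in GASH/Sal (2.29%) and 745 lower (3.74%). After each array was centred on its median the same count split into 869 higher and 387 lower, so the direction of the balance turned with the scaling. The differences were small, with a median standard error of 0.0895 (log2). Only 5 genes (0.0251%) were at least 1.5-fold apart at an unadjusted p of at most 0.05, all 5 higher in GASH/Sal, and 0 genes were 2-fold apart. These were Gstp1, Glra3, Mir350, Mirlet7c-1 and Macrod2, an ADP-ribose hydrolase that differed by 0.64 with all arrays and by 0.91 without GASH/Sal 6. The 6 GASH/Sal arrays lay wholly above the 6 Syrian arrays in 17 genes (0.0853%) and wholly below in 37 (0.186%).

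Without GASH/Sal 6, 13 genes (0.0652%) passed the adjusted threshold, all 13 higher in GASH/Sal. The genes at an unadjusted p under 0.05 then numbered 895 higher (4.49%) and 858 lower (4.3%). Leaving out any other naïve array gave 0 genes past the adjusted threshold. The number of genes at least 1.5-fold apart was 13 without GASH/Sal 6, and the groups did not overlap in 122 genes higher (0.612%) and 101 lower (0.507%). Without both GASH/Sal 5 and 6, the arrays with shared codes, 0 genes passed, and 636 were higher and 632 lower at an unadjusted p under 0.05.

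**Figure D2:**
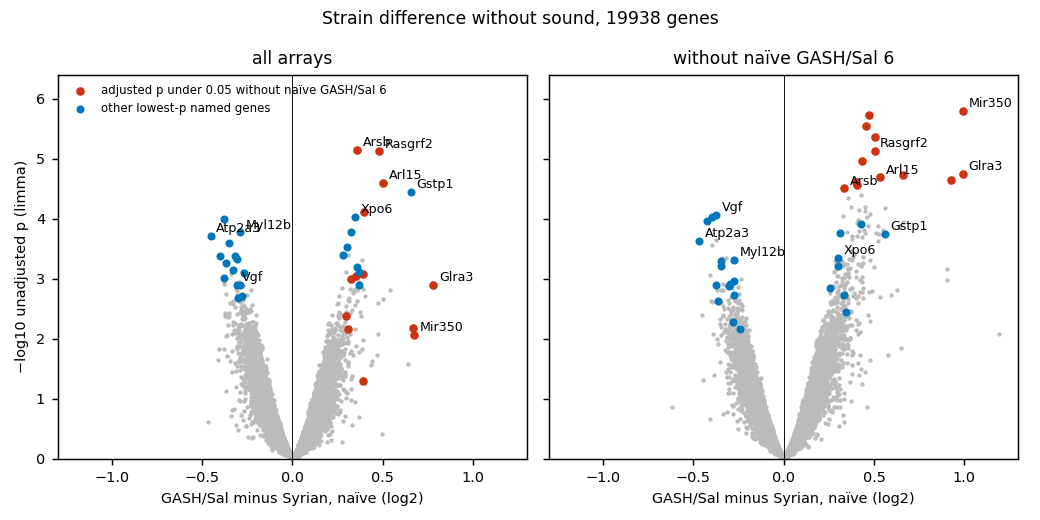
Strain difference in naïve animals for 19938 genes, as GASH/Sal minus Syrian on the log2 scale (horizontal axis) against −log10 of limma's unadjusted p (vertical axis), with all arrays (left) and without naïve GASH/Sal 6 (right). Red points passed the adjusted threshold without GASH/Sal 6 and blue points are other genes among the 30 of lowest p. All 13 red points lie to the right of 0 in both panels.

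The lowest p-values belonged to a lysosomal enzyme and a pair of signalling genes. Arsb encodes arylsulfatase B, which removes sulfate from dermatan and chondroitin sulfate in lysosomes. Its log2 signal ran from 5.27 to 5.69 with a median of 5.52 in naïve GASH/Sal, and from 4.97 to 5.29 with a median of 5.15 in naïve Syrian hamsters. The ranges touched only at their ends, and all 6 GASH/Sal arrays lay above the Syrian mean. The difference was 0.36 (SE 0.0661, limma adjusted p = 0.0760), 0.33 within series A and 0.39 within B. Over 28 other ways of processing or leaving out arrays it ran from 0.14 to 0.39. With the mean of each gene's probe sets, the lowest p belonged to Rasgrf2 and not to Arsb (limma adjusted p = 0.146). Rasgrf2 encodes a guanine exchange factor that couples calcium to Ras in neurons. It ran from 6.28 to 6.36 (median 6.32) in GASH/Sal and from 5.67 to 6.03 (median 5.85) in Syrian hamsters. The 2 groups did not overlap, and the 6 GASH/Sal values spanned far less than the Syrian ones. The difference was 0.48 (SE 0.0891, limma adjusted p = 0.0760), a 1.40-fold higher signal. Arl15, a small GTPase related to the ADP-ribosylation factors, ran from 5.59 to 6.01 (median 5.86) in GASH/Sal and from 5.16 to 5.45 (median 5.35) in Syrian hamsters, again with no overlap. Its difference was 0.50 in both label series and over all arrays (SE 0.101, limma adjusted p = 0.169). All 3 genes passed without GASH/Sal 6, at adjusted p = 0.0478, 0.0298 and 0.0445 for Arsb, Rasgrf2 and Arl15.

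Gstp1 encodes glutathione S-transferase pi, which conjugates glutathione to reactive compounds. It ran from 7.31 to 7.89 (median 7.67) in GASH/Sal and from 6.69 to 7.24 (median 6.91) in Syrian hamsters. The groups did not overlap, and the signal was 1.58-fold higher in GASH/Sal (difference 0.66, SE 0.136, limma adjusted p = 0.181). Without GASH/Sal 6, its highest array, the difference was 0.56 and the adjusted p = 0.0827. The glutathione S-transferases as a list did not share this: the 21 tested, Gstp1 included, had a median of -0.005, with 10 above 0. Gstt2 was the other member at an unadjusted p under 0.05, at -0.22.

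Glra3 had the largest difference of the genes named by p. It encodes the alpha 3 subunit of the glycine receptor, an inhibitory chloride channel of brainstem, spinal cord and sensory pathways. Its signal ran from 4.17 to 5.97 (median 5.73) in GASH/Sal and from 4.13 to 5.20 (median 4.62) in Syrian hamsters. The value of 4.17 was that of GASH/Sal 6, and the other 5 lay between 5.37 and 5.97, above every Syrian array. The difference was 0.78 (SE 0.220, limma adjusted p = 0.616), and 0.78 within both series A and B. The series B value includes GASH/Sal 6. The other GASH/Sal arrays of series B lay at 5.60 and 5.95, and its Syrian arrays between 4.13 and 4.63. Without GASH/Sal 6 the difference was 0.99 and the adjusted p = 0.0445, a 1.99-fold higher signal.

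**Figure D3:**
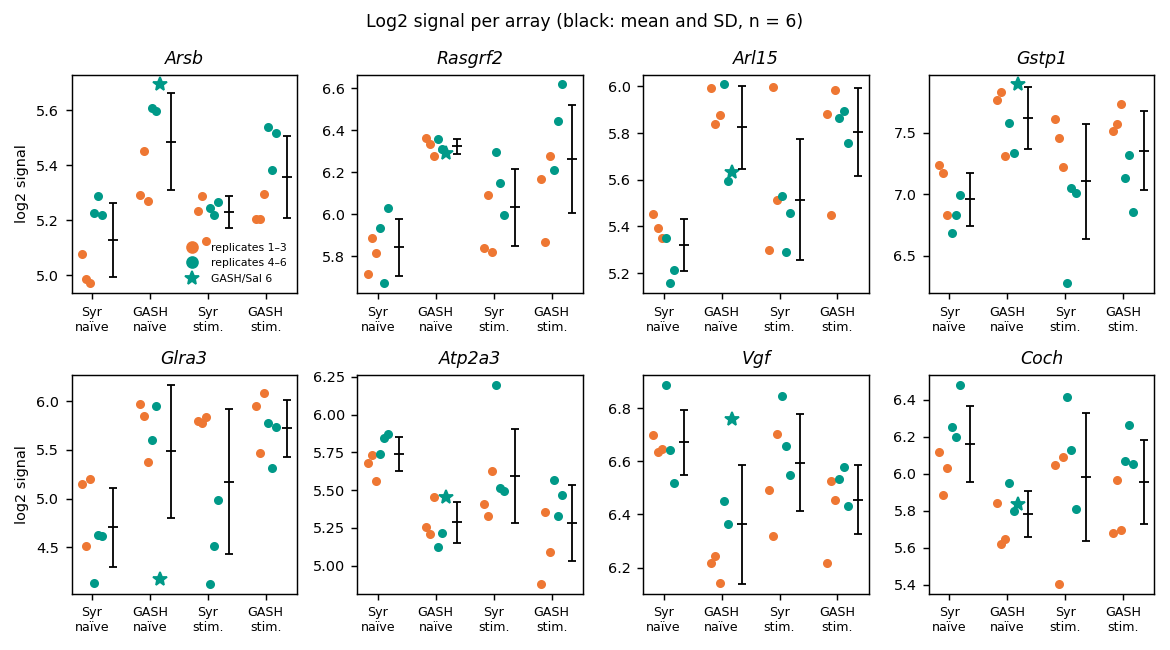
Log2 signal (vertical axes) of 8 genes on each array of the 4 groups (horizontal axes), with replicates 1 to 3 in orange, replicates 4 to 6 in green and naïve GASH/Sal 6 as a star; black bars show the mean and SD (n = 6). In Rasgrf2, Arl15 and Gstp1 every naïve GASH/Sal array lies above every naïve Syrian array, and in Atp2a3 every one lies below.

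Further genes higher in naïve GASH/Sal came from several functions, and none passed with all arrays. Xpo6, the exportin that carries actin out of the nucleus, had a difference of 0.35 (SE 0.0769) with 7.11 to 7.67 in GASH/Sal and 6.82 to 7.14 in Syrian hamsters. Tle4, a transcriptional corepressor of the Groucho family, had 0.30 (SE 0.0743), and Plekhb1, a pleckstrin-homology protein, 0.36 (SE 0.0937). In Xpo6, Tle4 and Plekhb1 all 6 GASH/Sal arrays lay above the Syrian mean. Epha6, a receptor for ephrins, ran from 5.72 to 6.33 in GASH/Sal and from 5.53 to 5.82 in Syrian hamsters, with 0.37 over all arrays and 0.43 without GASH/Sal 6. Ptpn4, a non-receptor tyrosine phosphatase, lay at 5.85 in GASH/Sal 6 and between 6.30 and 6.77 in the other 5, against 5.78 to 6.25 in Syrian hamsters. Those 5 arrays cleared the Syrian range, and the difference was 0.39 with all arrays (SE 0.105) and 0.50 without GASH/Sal 6. Arid4b, a subunit of a histone deacetylase complex, had 0.32 and Emc9, of the endoplasmic reticulum membrane complex, 0.37. The adjusted p of these 7 genes ran from 0.294 to 0.616.

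Among dimmer probe sets, below the signal of the median gene, Spock3 stood first. It encodes testican-3, an extracellular proteoglycan of the brain. Its signal was 3.99 in GASH/Sal 6 and between 4.41 and 4.60 in the other 5 arrays, while Syrian arrays ran from 3.92 to 4.23. The difference was 0.40 with all arrays (SE 0.0869, limma adjusted p = 0.294) and 0.47 without GASH/Sal 6 (adjusted p = 0.0185). Ptpro, a receptor-type tyrosine phosphatase, differed by 0.32 and Gcc2, a golgin of the trans-Golgi network, by 0.28, each with 6 of 6 GASH/Sal arrays above the Syrian mean.

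The 13 genes that passed without GASH/Sal 6 also held Mir350, Mirlet7c-1, Vps13a, Atr, Thoc2, Slc25a36, Arid4b and Ptpn4. The probe sets of Mir350 and Mirlet7c-1 are annotated to microRNA genes, and the mature microRNAs were not measured apart. Without GASH/Sal 6 the difference was 0.99 in Mir350 (adjusted p = 0.0185) and 0.93 in Mirlet7c-1 (adjusted p = 0.0445). GASH/Sal 6 lay at 2.93 in Mir350, where the other 5 ran from 4.76 to 5.09, and at 2.96 in Mirlet7c-1, where they ran from 4.46 to 5.09. Thoc2, which acts in export of mRNA from the nucleus, differed by 0.66 without that array and by 0.39 with it. Vps13a, a lipid transfer protein, differed by 0.45 without it, Atr, a kinase of the DNA damage response, by 0.43, and Slc25a36, a mitochondrial carrier of pyrimidine nucleotides, by 0.40. In 12 of these 13 genes the difference was larger without GASH/Sal 6 than with it, Arsb being the exception.

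Among probe sets at or above the median signal, the lower genes of lowest p in naïve GASH/Sal included Myl12b, a regulatory light chain of non-muscle myosin, and a calcium pump. Myl12b ran from 5.41 to 5.66 (median 5.53) in GASH/Sal and from 5.64 to 5.96 (median 5.84) in Syrian hamsters, a difference of -0.29 in both label series and over all arrays (SE 0.0670, limma adjusted p = 0.377). Atp2a3 encodes SERCA3, which pumps calcium into the endoplasmic reticulum. It ran from 5.13 to 5.45 (median 5.23) in GASH/Sal and from 5.56 to 5.87 (median 5.74) in Syrian hamsters. The groups did not overlap, and the signal was 1.37-fold lower in GASH/Sal (difference -0.45, SE 0.106, limma adjusted p = 0.387). Within series A it was -0.35 and within B -0.55.

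Coch encodes cochlin, an extracellular matrix protein of the inner ear that is mutated in a form of deafness. It ran from 5.62 to 5.95 (median 5.82) in GASH/Sal and from 5.89 to 6.48 (median 6.16) in Syrian hamsters, a difference of -0.38 (SE 0.104, limma adjusted p = 0.616). All 6 GASH/Sal arrays lay below the Syrian mean. Vgf encodes a neuropeptide precursor that neuronal activity and neurotrophins induce. It ran from 6.14 to 6.76 (median 6.30) in GASH/Sal and from 6.52 to 6.89 (median 6.64) in Syrian hamsters. The highest value, 6.76, was again that of GASH/Sal 6, and the difference was -0.31 with it (SE 0.0869, limma adjusted p = 0.616) and -0.38 without it (adjusted p = 0.0757). Within series A it was -0.46 and within B -0.16.

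The other lower genes had differences between -0.40 and -0.27. Clec2l, a C-type lectin-like membrane protein, differed by -0.37, Cdcp2 by -0.33, Ppdpf by -0.27, Vsig8 by -0.28 and Mettl2, a tRNA methyltransferase, by -0.30. The predicted or unnamed genes 1700049L16Rik, Gm9901 and Gm10840 differed by -0.40, -0.31 and -0.29. The groups did not overlap in 1700049L16Rik. Of the dim probe sets, Olfr678 (-0.38), an olfactory receptor gene, Ceacam10 (-0.35), a cell adhesion molecule of the carcinoembryonic antigen family, and C6 (-0.32), a complement component, did not overlap between the strains either.

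Some of the genes of lowest p share a stretch of the hamster annotation, a pattern seen after the values were known and given as a description. The hamster annotation of RefSeq lists 23 of the 30 genes, and its rows were read as runs in which start positions ascend, since it names no chromosome. Arsb, Rasgrf2 and Arl15, which ranked 1, 2 and 3 by p, fell in the same run. Arsb and Rasgrf2 lay at rows 22291 and 22317 of the annotation, and Arl15 farther off at row 22037. Sharing a run does not mean closeness. Another run held Tle4, Gstp1, Xpo6 and Plekhb1 at rows 993, 1398, 1852 and 2408. The run of Arsb held 165 of the 14108 tested genes with a hamster symbol, and 13 of the 165 (7.88%) had an unadjusted p under 0.05, against 5.81% of the 14108. Between Arsb and Rasgrf2 lay 17 protein-coding genes, of which 14 were tested and 3 had an unadjusted p under 0.05. These were Cmya5 (0.18) and Fam151b (0.15), higher in GASH/Sal, and Thbs4 (-0.20), a synapse-associated thrombospondin, lower. The 14 had a median of -0.0052.

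Spock3 and Glra3 also shared a run, with 23 protein-coding genes between them. Of these, 17 were tested, 0 had an unadjusted p under 0.05 by limma and their median was 0.035. Tle4 lay in a run with Gda, a guanine deaminase (difference 0.27), and Vps13a was the 1 gene of 17 tested between them with an unadjusted p under 0.05. Arl15 lay 21 protein-coding genes from Mier3 (difference 0.37), and Mcidas (-0.17) was the 1 of 17 tested between them. No count of such neighbours was tested.

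The genes that the study followed up did not separate the naïve strains on these arrays. By quantitative RT-PCR in other, younger animals, the paper reported Egr3, Npy, Rgs2 and Ttr as overexpressed in naïve GASH/Sal. It found no such difference for Abcb1a, and it described stronger immunolabelling of NPY, RGS2 and TTR by eye. Method, animals and age thus differ from those of the arrays, and the cause of the disagreement was not tested. Egr3, an activity-induced transcription factor, ran from 6.26 to 6.89 (median 6.75) in GASH/Sal and from 6.60 to 6.88 (median 6.79) in Syrian hamsters, a difference of -0.08 (95% interval -0.34 to 0.18). Within series A it was -0.29, against 0.12 within B. Npy, neuropeptide Y, ran from 6.68 to 7.28 (median 6.71) in GASH/Sal and from 6.77 to 7.07 (median 6.93) in Syrian hamsters. Its 5 GASH/Sal arrays other than 6 lay between 6.68 and 6.75, below every Syrian array, whereas GASH/Sal 6 lay at 7.28, above them all. The difference was -0.12 (SE 0.0865, limma adjusted p = 0.872) with that array and -0.21 (adjusted p = 0.384) without it.

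Rgs2, a brake on G-protein signalling, differed by -0.05 (95% interval -0.38 to 0.28). Ttr, transthyretin, which the choroid plexus makes in bulk, differed by -0.07 (95% interval -0.26 to 0.11). Its probe set was dim in both strains, at percentile 19.3 of signal, which limits what it can show. Abcb1a, the drug efflux pump of brain vessels, differed by -0.02 (SE 0.111), with 4.42 in GASH/Sal 2 and 4.97 to 5.13 in the other 5. The reference gene Actb differed by 0.12 (SE 0.0705), with 9.43 in GASH/Sal 6 and 8.89 to 9.09 in the others, and by 0.07 without GASH/Sal 6. Their ranges overlapped in every case, and the adjusted p of Egr3, Rgs2, Ttr, Abcb1a and Actb ran from 0.839 to 0.986.

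Receptors for glycine and glutamate were read as lists of genes. Over all 19938 genes the median difference was -0.011, with 45.8% above 0. In each list the number of genes past the adjusted threshold with all arrays was 0, and the share at an unadjusted p under 0.05 over all genes was 6.02%. Of 10 glycine receptor and transporter genes 8 were above 0, with a median of 0.086. Besides Glra3, Glra4 (0.23), another alpha subunit, had an unadjusted p under 0.05, while Glra1, the main adult alpha subunit of the brainstem, differed by 0.00 (SE 0.0819) and Glrb, the beta subunit, by 0.16 (SE 0.0782). Slc6a5, the glycine transporter of glycinergic neurons, differed by 0.02 (SE 0.0932). The receptor genes thus did not move alike.

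Of 15 AMPA and kainate receptor genes 13 were above 0, with the highest median of the 41 lists, 0.13. Grik3, a kainate receptor subunit, differed by 0.27 (SE 0.120) and was the 1 member at an unadjusted p under 0.05, but by 0.16 without GASH/Sal 6, and by 0.03 within series A and 0.51 within B. Gria1 and Gria3, AMPA receptor subunits, differed by 0.15 each with all arrays, and Gria3 by 0.41 (adjusted p = 0.270) without GASH/Sal 6. Gria2, the subunit that limits calcium entry, differed by -0.07 with all arrays and by 0.23 without GASH/Sal 6. The list median was 0.11 without GASH/Sal 6, 0.037 within series A and 0.071 within B. Of 12 NMDA and metabotropic glutamate receptor genes 8 were above 0 (median 0.058), and Grm3, a presynaptic and glial metabotropic receptor, differed by 0.32 (SE 0.113). Of 12 genes of glutamate transport and cycling 6 were above 0 (median 0.009), and Slc1a1, a neuronal glutamate transporter, differed by -0.19.

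Genes of GABA transmission lay on both sides of 0. Of 15 GABA-A receptor subunits 9 were above 0 (median 0.030), 0.13 within series A and -0.062 within B. Gabrq, the theta subunit, differed by 0.28 (SE 0.101). Of 13 genes for GABA synthesis, transport and GABA-B receptors 5 were above 0 (median -0.013, and -0.091 without GASH/Sal 6). Gad2, which makes GABA at terminals, differed by 0.19 (SE 0.0798) with 5 of 6 GASH/Sal arrays above the Syrian mean, while Gad1 differed by -0.11 (SE 0.0803). Slc6a13, a GABA transporter of the meninges, differed by -0.30.

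Ion channels and calcium handling gave few genes at an unadjusted p under 0.05. Of 53 potassium and HCN channels 27 were above 0 (median 0.003), with Kcnt2, a sodium-activated potassium channel, at 0.29 (SE 0.0944). Of 24 voltage-gated sodium and calcium channels 13 were above 0 (median 0.036), with Scn9a at 0.21. Of 22 calcium pumps and release channels 12 were above 0, with Orai1, the store-operated calcium channel, at 0.19 and the exchanger Slc8a1 at 0.18 opposite Atp2a3. Of 25 calcium-binding proteins 16 were above 0 (median 0.066). Calb2, calretinin, a marker of subsets of auditory neurons, differed by 0.29 (SE 0.103), 0.06 within series A and 0.52 within B, and S100a10 by -0.21.

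Of 37 genes of synaptic vesicle release 22 were above 0 (median 0.017). Rab3b (0.22), Syn3 (0.20) and Synpr (0.15), proteins of synaptic vesicles, were higher at an unadjusted p under 0.05. Vamp1 (-0.19), the vesicle SNARE of fast auditory and motor synapses, was lower in all 6 GASH/Sal arrays than the Syrian mean. Within series A the list had a median of -0.086, against 0.10 within B. Of 17 Ras guanine exchange factors 11 were above 0, with Rapgef6, an exchange factor for Rap, at 0.28 beside Rasgrf2. Rapgef6 differed by 0.45 (adjusted p = 0.0827) without GASH/Sal 6. Of 13 sulfatases 8 were above 0 (median 0.013), and Arsg differed by -0.16 while Arsb was higher.

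Of 19 genes linked to audiogenic or reflex epilepsy 13 were above 0 (median 0.069), and Cntnap2, an axonal neurexin-family protein, was the 1 member at an unadjusted p under 0.05, at 0.21 (SE 0.0735). Adgrv1, the adhesion receptor mutated in audiogenic Frings mice, differed by -0.06 (SE 0.0722) at percentile 12.6 of signal, Fmr1 by 0.11 (SE 0.158) and Scn1a, a sodium channel of inhibitory neurons, by 0.15 (SE 0.128). Fmr1 differed by 0.32 and Scn1a by 0.29 without GASH/Sal 6, at adjusted p = 0.418 and 0.419. Of 24 hearing loss genes 9 were above 0 (median -0.025), with Tecta, a tectorial membrane protein, at -0.16. Of 35 ABC transporters 12 were above 0 (median -0.019), of 18 RGS genes 12 (median 0.033) and of 33 neuropeptides and granins 16 (median -0.005).

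Lists of genes induced by neuronal activity or by glucocorticoids had medians below 0 without sound with all arrays, where the median of all genes was -0.011. None of their members passed the adjusted threshold. Of 24 immediate-early transcription factors 15 were below 0 with a median of -0.039, -0.14 within series A and 0.048 within B. Series B includes GASH/Sal 6, whose mean log2 signal over the list was 5.54, against at most 5.43 in the other GASH/Sal arrays. Without GASH/Sal 6 the list median was -0.095, and without GASH/Sal 1 it was 0.003. Klf4 (-0.30, SE 0.104) and Fosl2 (-0.19, SE 0.0857) had an unadjusted p under 0.05. Of 25 activity-regulated effectors 17 were below 0 (median -0.045), with Bdnf, a neurotrophin, at -0.19 (SE 0.0676) and all 6 GASH/Sal arrays below the Syrian mean. Of 16 glucocorticoid-induced genes 13 were below 0 (median -0.067). The metallothioneins Mt1 (-0.36, SE 0.116) and Mt2 (-0.22, SE 0.0950), which bind zinc and copper, were the 2 at an unadjusted p under 0.05. All 6 GASH/Sal arrays lay below the Syrian mean in both. The glucocorticoid-induced list kept a median below 0 in label series A (-0.13) and B (-0.037), without GASH/Sal 6 (-0.082) and after median centring (-0.035).

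Housekeeping, stress, clock and immune lists had medians from -0.017 to 0.049, against -0.011 over all genes. Of 54 cytosolic ribosomal protein genes 35 were above 0 (median 0.013, but -0.033 without GASH/Sal 6), and Rps3a1 and Rps15a differed by -0.29 and -0.21. Of 77 oxidative phosphorylation genes 42 were above 0 (median 0.011, but -0.041 without GASH/Sal 6). Atp5g2 (0.26, but 0.16 without GASH/Sal 6), Ndufb3 (0.18) and Ndufa1 (-0.17) had an unadjusted p under 0.05 with all arrays. Of 20 heat shock chaperones 12 were above 0, with Hspa1a, the inducible Hsp70, at -0.28 (SE 0.108) and Dnajb5 at -0.19. Of 20 circadian clock genes 14 were above 0 (median 0.049), with Nr1d2 at 0.21, Tef at 0.19 (0.11 without GASH/Sal 6) and Arntl at -0.19. Of 26 interferon and MHC genes 10 were above 0 (median -0.017), with H2-Ab1 at -0.20 (SE 0.109). Without GASH/Sal 6 the median crossed 0 in 7 of the 41 lists, among them heat shock chaperones (-0.010), calcium pumps (-0.018), synaptic vesicle release (-0.005) and Ras exchange factors (-0.0004).

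**Figure D4:**
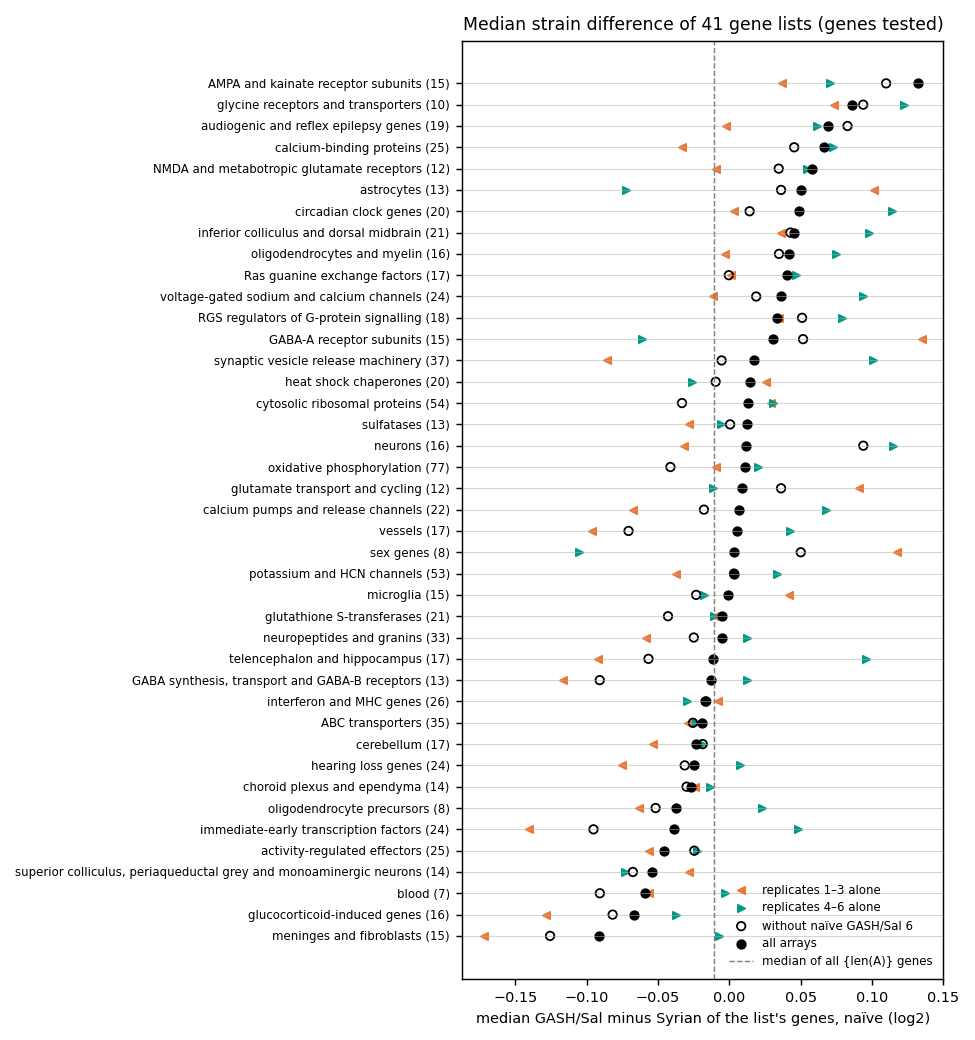
Median strain difference in naïve animals (GASH/Sal minus Syrian, log2, horizontal axis) of the genes of 41 lists, with the number of genes tested in brackets: all arrays (black), without naïve GASH/Sal 6 (open), replicates 1 to 3 alone (orange) and replicates 4 to 6 alone (green); the dashed line is the median of all genes, -0.011. AMPA and kainate receptor subunits lie highest at 0.13 and meningeal genes lowest at -0.091, and many lists have label series on opposite sides of 0.

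Markers of the midbrain itself were among the genes higher in naïve GASH/Sal, but not in stimulated animals with all arrays. Of 21 inferior colliculus and dorsal midbrain genes 14 were above 0 (median 0.045) in naïve animals, against 8 (median -0.0099) in stimulated animals. Tfap2b, a transcription factor of developing midbrain and hindbrain, differed by 0.38 (SE 0.122), 0.15 within series A and 0.61 within B. Gata3, a factor of midbrain GABA neurons, differed by 0.26 (SE 0.119) with all arrays and 0.15 without GASH/Sal 6. En2, a homeobox gene of midbrain and cerebellum, differed by 0.26 (SE 0.0824), and all 6 GASH/Sal arrays lay above the Syrian mean in Tfap2b, Gata3 and En2. In stimulated animals Tfap2b differed by 0.01, Gata3 by -0.03 and En2 by -0.17. These values include stimulated Syrian 4. It was the highest stimulated Syrian array in Gata3 (5.80, the others 5.29 to 5.70) and in En2 (5.40, the others 4.93 to 5.12). By limma 0 genes had a strain difference that differed between naïve and stimulated animals at an adjusted p under 0.05. En1 and Pax7 of the same territory differed by 0.05 (SE 0.0800) and -0.04 (SE 0.0683).

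Markers of neighbouring tissue were read in the same way, since a dissection can take in more or less of it. Of 15 meningeal and fibroblast genes 15 were below 0, the lowest list median at -0.091. With all arrays Slc6a13 was the 1 at an unadjusted p under 0.05. Ptgds, a prostaglandin synthase of the leptomeninges, differed by -0.23 (SE 0.115), and the defining markers Dcn, Lum and Col1a1 by -0.01, -0.04 and -0.08. The mean log2 signal of the list ran from 4.75 to 5.22 in GASH/Sal and from 4.92 to 5.30 in Syrian arrays. The value of 5.22 was that of GASH/Sal 6, and the other GASH/Sal arrays reached 5.06 at most. Without GASH/Sal 6 the list median was -0.13, with 15 of 15 below 0. Then 4 of the 15 were lower at an unadjusted p under 0.05, against 4.3% of all genes. Within series A the list stood at -0.17 and within B at -0.007. The part of meningeal tissue in the lower genes was not tested.

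Of 17 cerebellar genes 6 were above 0 (median -0.023). Cbln3 of granule cells differed by -0.30 (SE 0.0974) and En2, which is in this list too, by 0.26 (SE 0.0824). Pcp2 of Purkinje cells and Gabra6 differed by -0.06 and -0.04. Of 17 telencephalic genes 8 were above 0 (median -0.012), with Rasgrf2, a member of this list too, at 0.48 and Emx1 at -0.18. Of 14 genes of the superior colliculus, periaqueductal grey and monoaminergic neurons 4 were above 0 (median -0.054), with Slc18a3, the vesicular acetylcholine transporter, at -0.23 (SE 0.124). Of 14 choroid plexus and ependymal genes 5 were above 0 (median -0.027), with the water channel Aqp1 at -0.13 (SE 0.0703).

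No cell type marker passed the adjusted threshold. Of 16 neuronal genes 8 were above 0 (median 0.012, and 0.094 without GASH/Sal 6), with Nefl, neurofilament light chain, at 0.20 and Eno2 at 0.22. Of 16 oligodendrocyte and myelin genes 10 were above 0 (median 0.042). Cldn11, the tight junction protein of myelin, differed by 0.26 (SE 0.0833) and Cnp by 0.27 (SE 0.0934), each with 6 of 6 GASH/Sal arrays above the Syrian mean, while Mbp differed by 0.10 and Mog by -0.03. Of 13 astrocyte genes 8 were above 0 (median 0.050), 0.10 within series A and -0.072 within B. Of 15 microglial genes 7 were above 0 (median -0.001), of 17 vessel genes 9 (median 0.005, and -0.071 without GASH/Sal 6), of 8 oligodendrocyte precursor genes 3 (median -0.037) and of 7 blood genes 1 (median -0.059). Gjb6, Laptm5, Sox6, Ngp and Cldn5, the lowest-p members of the astrocyte, microglial, precursor, blood and vessel lists, differed by -0.13, 0.13, 0.14, -0.08 and -0.18. Of 8 sex genes 4 were above 0 (median 0.004), and Kdm6a, an X-linked histone demethylase, differed by 0.39 (SE 0.150).

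The median difference also varied with gene length. Among 8589 genes at or above the median signal with a hamster gene length, the median difference went from -0.019 in the shortest of 5 equal length bins to 0.037 in the longest. Without GASH/Sal 6 these were -0.041 and 0.038, and in the stimulated animals -0.018 and 0.034. GASH/Sal 6 lay 0.14 above the other GASH/Sal arrays in the shortest bin and 0.032 above them in the longest. The part of length in single genes was not tested.

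The stimulated animals gave a second, separate set of arrays for the same strain contrast. There 0 genes (0%) had an adjusted p under 0.05 by limma and 1080 (5.42%) an unadjusted p under 0.05. Over all genes 57.0% of differences had the same sign in naïve and stimulated animals, with a Pearson r of 0.211 over 19938 genes, which are not independent replicates. Of the 1201 genes at an unadjusted p under 0.05 in naïve animals, 65.9% had the same sign, and 84 also had an unadjusted p under 0.05 in stimulated animals. Of the 30 genes of lowest p named above, 23 had the same sign, 13 of 15 higher genes and 10 of 15 lower ones.

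Glra3 had the largest difference of those 30 in stimulated animals as well, at 0.55 (SE 0.220). Epha6 followed at 0.31, then Atp2a3, the largest of the lower genes, at -0.31 (SE 0.106), Arl15 at 0.29, Gstp1 at 0.25 and Rasgrf2 at 0.23. The adjusted p of these 6 ran from 0.887 to 0.901 in the stimulated comparison. Arsb differed by 0.13 there, Coch by -0.03 and Vgf by -0.14. Emc9 (-0.01) and Ptpro (-0.05), both higher in naïve GASH/Sal, stood just below 0. All 13 genes that passed without naïve GASH/Sal 6 had the same sign in stimulated animals, 4 of them at an unadjusted p under 0.05.

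Several of these values leaned on stimulated Syrian 4, a comparison made after the data were seen. Its log2 signal was 4.12 in Glra3, where the other stimulated Syrian arrays ran from 4.51 to 5.84, 6.27 in Gstp1, where they ran from 7.01 to 7.61, and 6.20 in Atp2a3, where they ran from 5.33 to 5.63. In all 3 genes it lay outside the others, on the side that widens the strain difference. Without it the stimulated difference was 0.39 (SE 0.214) in Glra3, 0.11 (SE 0.118) in Gstp1 and -0.21 (SE 0.0920) in Atp2a3. Arl15 (0.31), Epha6 (0.30) and Rasgrf2 (0.27) moved by less than their SE from the values with all arrays. By limma 0 genes (0%) then passed and 838 (4.2%) had an unadjusted p under 0.05. The same sign as in naïve animals was found in 53.2% of all genes, in 60.4% of the 1201, in 20 of the 30 (13 of 15 higher and 7 of 15 lower) and in all 13 of the genes that passed without naïve GASH/Sal 6. Of these 13, 4 had an unadjusted p under 0.05, and Mirlet7c-1 stood at 0.002 (SE 0.222), no measurable difference. Pearson's r over the 19938 genes was 0.122.

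Whether the strain difference itself differed between naïve and stimulated animals was tested as an interaction. With limma 0 genes (0%) passed the adjusted threshold and 734 (3.68%) had an unadjusted p under 0.05. For Arsb the naïve difference exceeded the stimulated one by 0.23 (SE 0.0935), for Rasgrf2 by 0.25 (SE 0.126), for Arl15 by 0.21 (SE 0.143) and for Glra3 by 0.23 (SE 0.311). None of these interactions passed after adjustment. Without stimulated Syrian 4, 0 genes (0%) passed and 931 (4.67%) had an unadjusted p under 0.05, and the excess was 0.39 (SE 0.295) for Glra3 and 0.54 (SE 0.163) for Gstp1.

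**Figure D5:**
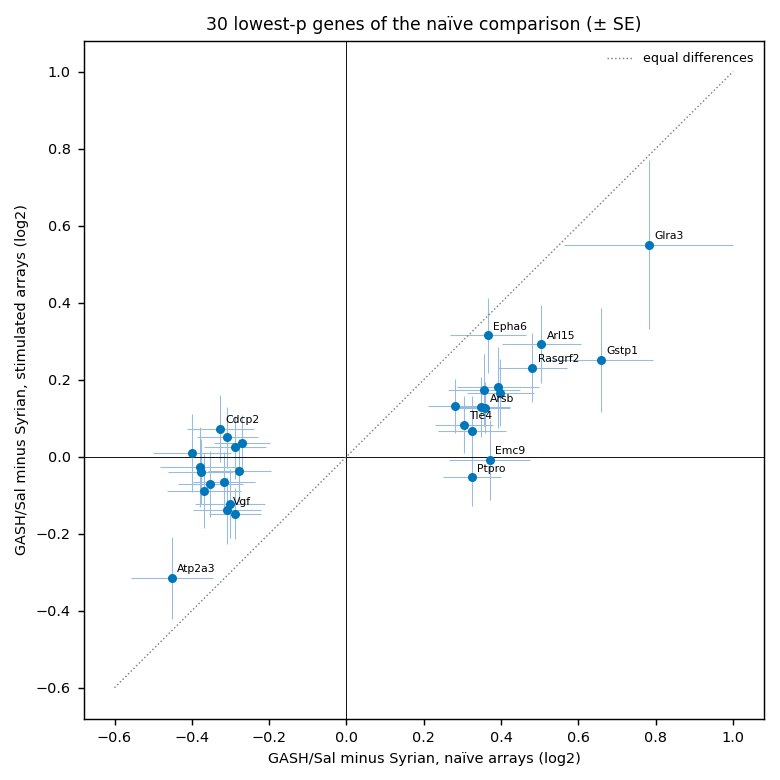
GASH/Sal minus Syrian (log2) in naïve arrays (horizontal axis) and in stimulated arrays (vertical axis) for the 30 genes of lowest p in the naïve comparison, with limma's SE as bars; the dotted line marks equal differences. Glra3 lies farthest to the upper right, at 0.78 and 0.55, and Atp2a3 farthest to the lower left, at -0.45 and -0.31.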

How the data were processed

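RNA of the IC from 24 hamsters was hybridised to mouse whole-transcript arrays, 6 per group. The authors deposited log2 signals of 35556 probe sets after RMA (named in the submitters' processing notes, with no version given). This method corrects background, normalises between arrays and summarises probes, so whole-array offsets are largely removed. The platform annotation gave 21789 probe sets with 1 symbol, 1621 with several and 12146 with none. Those with 1 symbol were used, keeping the brightest probe set of each of the 999 genes with more than 1, which left 19938 genes with no filter on low signal.

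All 24 arrays were fitted in limma 3.58.1 under R 4.3.3, with terms for the 4 groups and the label series, leaving 19 residual degrees of freedom. P-values are two-sided and Benjamini-Hochberg adjusted over all genes, with a threshold of 0.05. The labels call each array a biological replicate. Arrays give no read depth, so their number limits the precision. The scripts were tested on simulated data.

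The arrays compared, the 41 gene lists and the naming rule were chosen with earlier results of these data known. Named throughout were Actb and the followed-up genes Abcb1a, Egr3, Npy, Rgs2 and Ttr, the 12 lowest-p genes per direction among brighter genes, the 3 lowest-p among dimmer genes, and up to 3 members of each list. Other genes were named after their values were seen. Hamster symbols were matched by name for 14108 genes, and their order was taken from the RefSeq annotation. Alternatives covered the model, filters, scaling, weights and left-out arrays. The cause of the shared sample codes was not tested.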

Additional observations from a re-analysis of the deposited data

Results flagged for a closer look

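Of 200 sets of 6 naïve arrays examined for a sample far from the others, 22 held one. In sets not chosen by their values, chance alone marks about 5%. These sets covered 98 named genes, among them genes named because they passed once GASH/Sal 6 was left out, such as Mir350 and Thoc2. That choice favoured an outlying GASH/Sal 6, so the 5% is no measure for these counts. In 15 of the 22 the sample was naïve GASH/Sal 6. It lay far below the other GASH/Sal arrays in Glra3 (4.17), Spock3 (3.99), Arid4b (5.07), Rapgef6 (4.26), Sox6 (5.55), Mir350 (2.93), Mirlet7c-1 (2.96), Vps13a (3.92), Atr (3.92) and Thoc2 (5.02), and in its mean correlation with its group (0.969). It lay far above them in Npy (7.28), Actb (9.43), Atp5g2 (7.90) and Arsg (5.50).

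The other 7 were spread over 5 arrays. Naïve Syrian 2 was far below its group in Grm3 (5.49) and Mt2 (3.97) and far above it in H2-Ab1 (4.92). Single genes set apart naïve GASH/Sal 2 (Abcb1a, 4.42), GASH/Sal 3 (Slc1a1, 4.56), GASH/Sal 5 (Gstt2, 3.41) and Syrian 6 (Olfr678, 5.23).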

How the results depend on the processing

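The number of genes past the adjusted threshold moved from 0 to 2 with a filter at the median signal (Arsb, Rasgrf2), to 1 with median centring (Rasgrf2), to 18 with array weights and to between 0 and 13 as each array was left out, 13 coming only without naïve GASH/Sal 6. Chosen after seeing the data, leaving out naïve GASH/Sal 6 with stimulated Syrian 4 gave 64 and fitting the naïve arrays alone without GASH/Sal 6 gave 11. In the order filter, array weights, that pair left out, and naïve arrays alone, 607, 2234, 2180 and 2443 genes had an unadjusted p under 0.05. This count was 1960 in label series A, 2113 over all probe sets (also chosen after seeing the data) and 964 to 1753 as each array was left out. Genes 1.5-fold apart numbered 26 in label series A, 32 in series B, 3 with the filter, 13 without GASH/Sal 5 and 6, 13 without the pair, 12 in the naïve arrays alone, 104 over all probe sets and 3 to 13 as each array was left out. Groups that did not overlap numbered 18 genes with the filter, 391 without GASH/Sal 5 and 6, 99 over all probe sets and 79 to 223 as each array was left out. Interactions past the threshold stayed at 0 as each array was left out.

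Directions of small differences turned for Egr3 (0.12) and Ngp (0.0094) in label series B, Ttr in label series A (0.075) and without GASH/Sal 5 and 6 (0.0084), Rgs2 in the naïve arrays alone without GASH/Sal 6 (0.024), and Abcb1a in series B (0.076), with median centring (0.0080) and with quantile normalisation (0.0024). As each array was left out, Rgs2 ran from -0.15 to 0.016 and Abcb1a from -0.10 to 0.077. The other differences of the 98 named genes kept their sign, and 62 of their values passed the adjusted threshold under some alternative. The causes were not tested.

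Replicate numbers did not pair the arrays: same-numbered arrays correlated at -0.30 to 0.17 after group and series means were removed, and 2 of 6 matched their own number best. With the replicate block 0 genes passed and 1128 had an unadjusted p under 0.05.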
